A study of Homo sapiens with 6 samples.

Results

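Glycolysis and glycogen enzymes were examined in the core and the margin of MDA-MB-231 xenograft tumors, using 33 genes that run from glucose uptake to lactate and include the enzymes that store and release glycogen. The list was drawn up by name, for place in the pathway, with earlier results of these data known, and all 33 were found among the 60671 annotated genes of the matrix. MDA-MB-231 is a human triple-negative breast cancer line of mesenchymal character. Its cells, of genotype WT and given no other treatment, had been injected orthotopically into the mammary fat pad of NSG mice, which lack T, B and NK cells but keep macrophages, fibroblasts, vessels and muscle. RNA was sequenced from 3 samples of tumor core (TC) and 3 of tumor margin (TM), and the question addressed was how metabolism differs between these zones. The mice were female and 6 to 8 weeks old when purchased, and nothing in the labels says whether a TC and a TM sample with the same number came from 1 mouse.

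Glycolysis splits glucose into pyruvate in the cytosol, and lactate dehydrogenase then converts pyruvate to lactate so that the pathway can go on without oxygen. Many of its genes are classical targets of the hypoxia-inducible factor HIF-1, which is why glucose transporters, PGK1 and LDHA are often read as markers of poorly perfused tumor regions. Glycogen is a branched glucose polymer that tumor cells can build when glucose is available and break down when it is scarce.

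Levels were given in TPM, a unit that scales reads by transcript length and by the total of the sample, so that genes can be compared within a sample. The matrix holds no read counts, so the depth behind each value is unknown. The 13861 genes that reached 1 TPM or more in 3 or more of the 6 samples were tested. The zones were compared by limma on log2(TPM + 1), two-sided, with Benjamini-Hochberg adjustment over all of these genes, and an adjusted p under 0.05 counted as a call. Differences below are TC minus TM on that log2 scale. In bulk tissue, fewer cells of a type and less RNA per cell cannot be told apart.

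Markers of the line were checked first. VIM, CD44, ANXA1, S100A4 and KRT18 summed to between 4917 and 6459 TPM in every sample, with VIM alone at 3797 to 5283 TPM. S100A4 was not even across the zones, at 450.3, 443.1 and 273.2 TPM in TC and 178.8, 173.3 and 191.4 TPM in TM (limma adjusted p = 0.0813). The other markers of this sum overlapped. ESR1, PGR, CDH1 and ESRP1 stayed under 1 TPM, so that the labelled epithelial cell type lacked its defining adhesion gene CDH1. The other genes of the list of low or absent markers were detected, EPCAM at 3.66 to 6.02 TPM and ERBB2 at 22.3 to 40.7 TPM. The 14 skeletal muscle markers found in the matrix summed to 4.61 to 8.48 TPM in TC, to 202.4 and 549.6 TPM in TM replicates 1 and 2, and to 3.45 TPM in TM replicate 3. The 8 fibroblast markers summed to 65.1 to 223.6 TPM in TC and to 473.9, 1002 and 88.5 TPM in the same order of TM replicates. Adipocyte markers summed to less than 1 TPM in every sample, with ADIPOQ and LEP at 0, and endothelial markers reached at most 7.02 TPM, with EMCN at 0. The 7 macrophage markers summed to 95.2 to 106.1 TPM in TC and 101.7 to 108.3 TPM in TM, of which CD68 made up most. Erythroid markers reached at most 6.93 TPM. Reads of mouse and human origin were not separated as far as the methods say. Host cells are of mouse and reads were aligned to hg38, so a low or zero sum does not show that a host cell type was absent. Sums of different marker lists cannot be compared with each other. TM replicate 3 thus stood apart from the other two margin samples, and the counts of genes past an unadjusted p or free of overlap are also given without it.

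None of the 32 tested glycolysis and glycogen genes was called, against 19 called genes, or 0.137%, of all genes tested. The smallest adjusted p of a member was 0.116 by limma, for PFKM. At an unadjusted p under 0.05, 1 member was higher in TC (PGK1) and 1 was lower (PFKM), where 1.93% of all genes were higher and 14.2% lower. The differences of the members ran from -0.65 to 0.40 with a median of -0.019, beside a median of -0.14 over all genes tested, and 13 members were above 0 and 19 below. The remaining member, FBP1, the gluconeogenic enzyme that reverses the phosphofructokinase step, was too low to test. It was listed at 0 in all 3 TC samples and at 0, 0.35 and 0.13 TPM in TM.

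**Figure D1:**
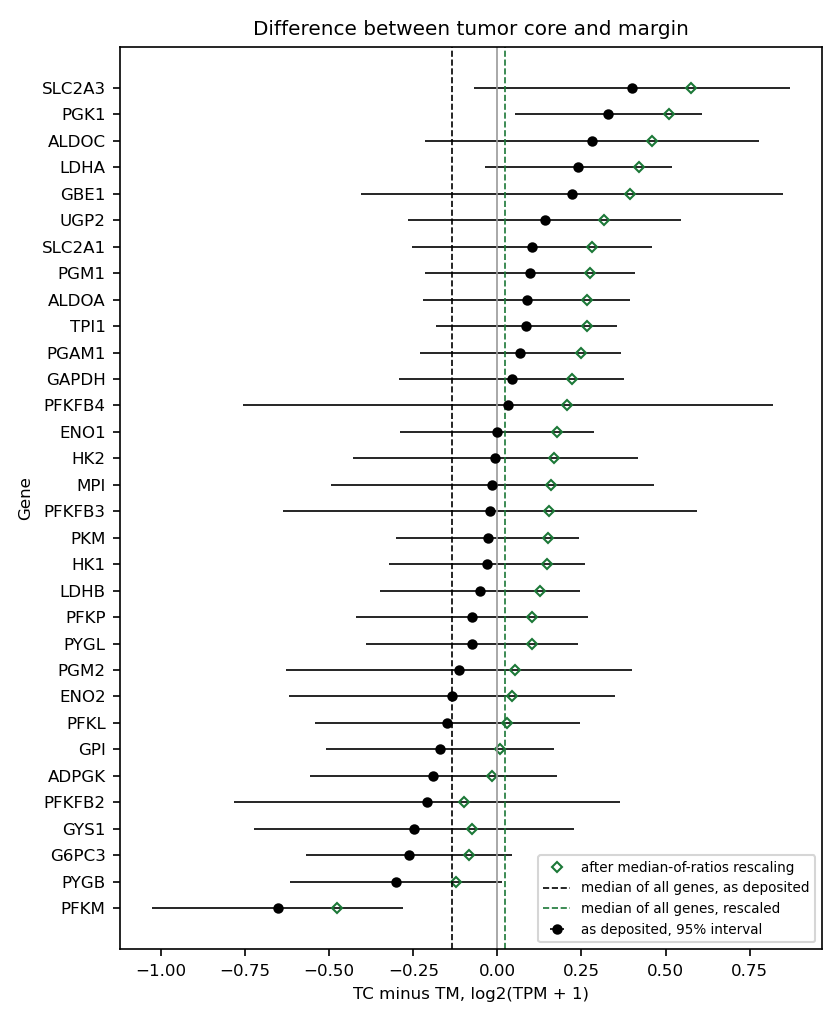
Difference between TC and TM for the 32 tested genes on the log2(TPM + 1) scale, ordered by size; black points and bars are the limma estimate and its 95% interval, green diamonds the estimate after rescaling, and dashed lines the medians of all genes tested. Only the intervals of PGK1 and PFKM leave out 0, and the diamonds lie to the right of the points for every gene.

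The position of these differences relative to 0 depended on how the samples were scaled. Median-of-ratios rescaling, which sets the typical gene level in each sample, moved the median of all genes by 0.157, to 0.021. It moved the median of the members to 0.157, so that 26 of the 32 lay above 0 and 6 below, and 13 members changed sign, among them HK1, HK2, GPI, ENO1 and PKM. After rescaling, PGK1, LDHA and SLC2A3 had an unadjusted p under 0.05 in the direction of TC (5.76% of all genes) and PFKM in the direction of TM (7.65% of all genes), with no member called and a smallest adjusted p of 0.247 by limma. Quantile normalization put the median of the members at 0.0012 and that of all genes at 0.014, with 16 members on each side. It changed the sign of 7 members, among them ALDOA and TPI1, which rescaling had left unchanged. TPM recomputed without mitochondrially encoded genes changed the sign of PFKFB4 and GAPDH. The scalings also differed from each other, with ENO1 at 0.178 after rescaling and -0.241 after quantile normalization. The direction of all of these members thus depended on the scaling. PGK1, LDHA, PFKM, PYGB and G6PC3 kept their sign under every setting tried. So did SLC2A3, ALDOC, PGAM1, PGM1, ADPGK, PFKFB2 and GYS1 in every setting in which they were tested. Where the TC and TM values of a gene do not overlap, leaving out a sample or changing the pseudocount or filter cannot turn its sign.

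The whole set took a similar share of the RNA in both zones. Its 33 genes made up 2.45%, 2.51% and 2.35% of all TPM in TC and 2.33%, 2.25% and 2.5% in TM, that is 2.44% ± 0.0777 and 2.36% ± 0.128 (SD, n = 3). The groups overlapped, since TM replicate 3 lay above TC replicates 1 and 3. GAPDH alone supplied 36.5% ± 1.19 of this sum in TC and 36.7% ± 1.96 in TM. The 9 most abundant genes, from GAPDH through ENO1, PKM, ALDOA, TPI1, LDHA, PGAM1 and PGK1 to LDHB, supplied 91.2% ± 0.711 and 90.4% ± 0.246.

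**Figure D2:**
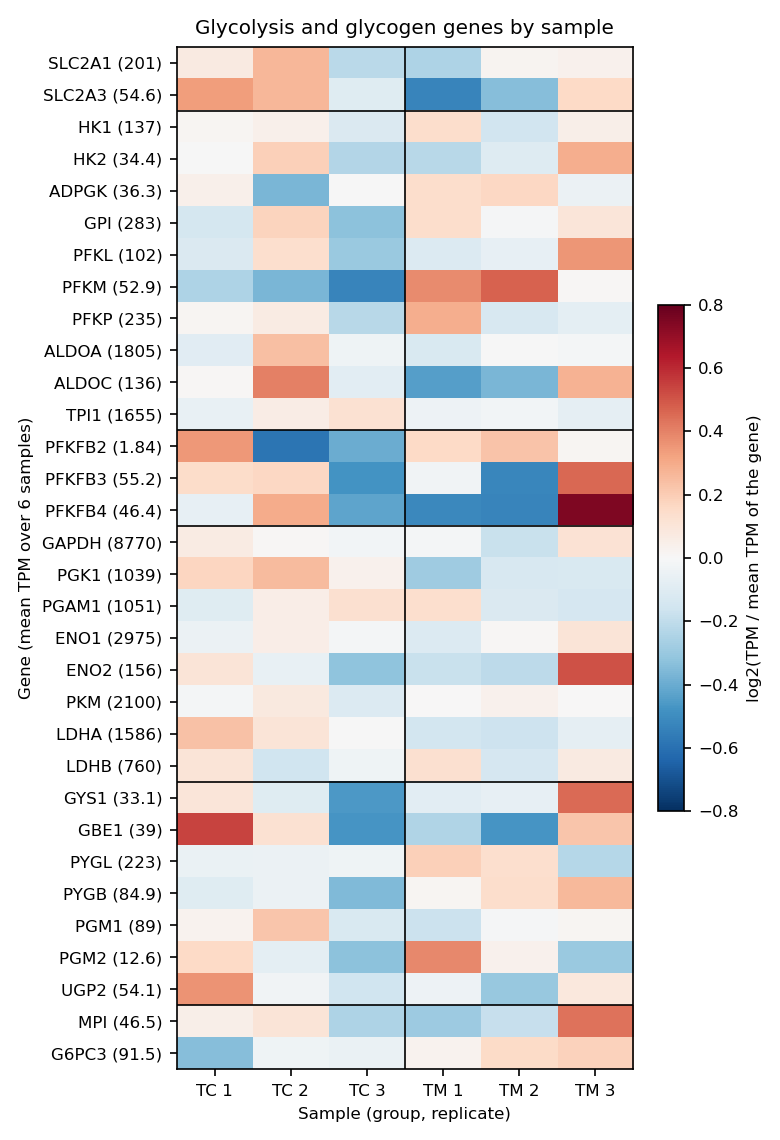
Level of each tested gene in each of the 6 samples as log2 of its TPM over its mean, in the order of the pathway; the number beside each name is the mean TPM, and horizontal lines part transport, upper glycolysis, control of phosphofructokinase, lower glycolysis, glycogen and sugar phosphate genes. PFKM is blue in every TC sample, and PFKFB4, ENO2, GYS1 and MPI are reddest in TM replicate 3.

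Among all genes tested, the TC values lay entirely above the TM values in 3.28% and entirely below them in 18.9%. Of the 32 members, 2 lay above (PGK1 and LDHA) and 3 below (PFKM, PYGB and G6PC3). These 5 genes are described with all of their values.

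PGK1 encodes phosphoglycerate kinase, which makes the first ATP returned by the pathway. It reached 1168, 1238 and 1066 TPM in TC and 854, 949.7 and 956 TPM in TM. Every core sample exceeded every margin sample. The means were 1157 ± 86.7 and 919.8 ± 57.4 TPM (SD, n = 3). They differed by 0.33 on the log2 scale, with an SE of 0.121 and a limma adjusted p of 0.232.

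LDHA, the lactate dehydrogenase subunit that favors lactate formation, stood at 1868, 1707 and 1584 TPM in TC and at 1435, 1415 and 1507 TPM in TM. The groups were again separate, with the nearest pair TC replicate 3 and TM replicate 3. The log2 difference was 0.24 (SE 0.121, limma adjusted p = 0.392). LDHB, which encodes the other common subunit, overlapped between the zones at 679 to 818 TPM in TC and 693 to 831 TPM in TM.

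PFKM, the muscle-type phosphofructokinase that commits fructose 6-phosphate to glycolysis, had the largest difference of all members by size. It stood at 44.5, 41.0 and 36.6 TPM in TC and at 68.6, 73.2 and 53.2 TPM in TM. No core sample reached the lowest margin sample. The log2 difference was -0.65 (SE 0.163, 95% interval -1.03 to -0.28, limma adjusted p = 0.116), and without TM replicate 3 it was -0.79 (limma adjusted p = 0.0774). The margin samples left in that fit, TM replicates 1 and 2, were those with high muscle marker sums (202.4 and 549.6 TPM). The part of muscle content in this difference was not tested.

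PYGB encodes the brain-type glycogen phosphorylase, which frees glucose 1-phosphate from glycogen. Its values were 79.3, 82.3 and 66.5 TPM in TC and 86.0, 93.5 and 101.8 TPM in TM. The gap between the highest core and the lowest margin sample was small beside the spread within each zone. The log2 difference was -0.30 (SE 0.137, limma adjusted p = 0.333).

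G6PC3, the ubiquitous glucose 6-phosphatase of the endoplasmic reticulum, was at 72.3, 89.4 and 88.0 TPM in TC and 93.2, 101.8 and 104.2 TPM in TM. The lowest margin value lay just above the highest core value. The log2 difference was -0.26 (SE 0.134, limma adjusted p = 0.397). After rescaling, only PGK1, LDHA and PFKM stayed free of overlap, where 8.84% of all genes lay entirely above and 11.0% entirely below.

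**Figure D3:**
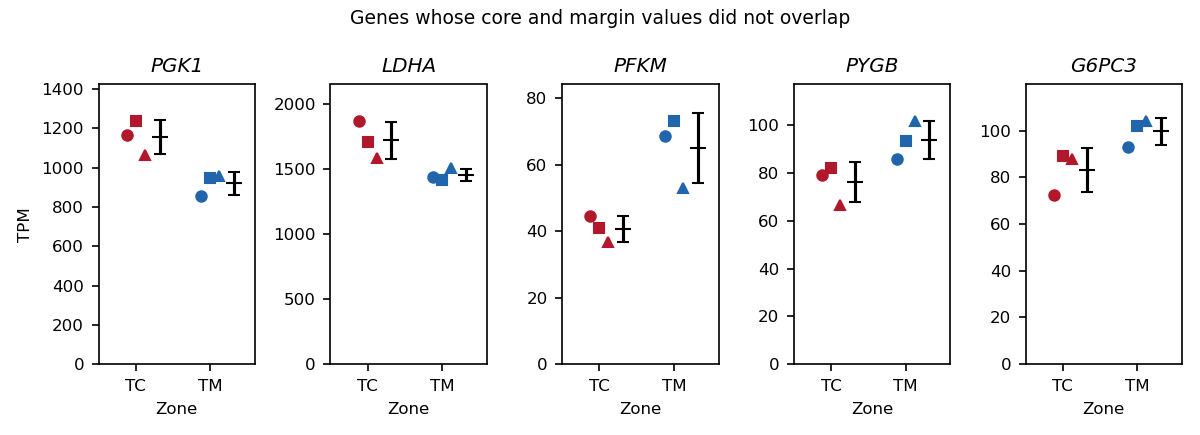
TPM of the 5 genes whose TC and TM values did not overlap, each panel with its own axis from 0; red symbols are TC and blue TM, with circles, squares and triangles for replicates 1, 2 and 3, and black marks give the mean and SD. PGK1 and LDHA are higher in every TC sample and PFKM, PYGB and G6PC3 lower.

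HIF-1 binds a short core of DNA, ACGTG or GCGTG, in the hypoxia response elements of its targets. The 250 bases upstream of the RefSeq start (GRCh38.p14) were searched for both cores on both strands in the 31 members with a promoter entry. ACGTG was found in 12 of these 31 (38.7%, against 18.5% of 35116 promoters of the same length) and GCGTG in 14 (45.2%, against 32.2%), and 20 held at least 1 of them (64.5%, against 43.2%). Both cores hold a C followed by a G, and G and C made up 46.8 to 79.2% of the members' windows. The 35116 promoters were all entries, not 1 per gene as for the members, and were not matched for base content or expression. The shares are thus a description, and the part of base content in them was not tested. Of the 5 genes without overlap, PGK1 held 3 matches, LDHA 5, PYGB 2 and G6PC3 2, and PFKM held none. A CACGTG counts as 2 matches, 1 on each strand. The 2 matches of G6PC3 were thus 1 CACGTG, and the 5 of LDHA included 2 CACGTG. The windows around these matches are shown because genes on both sides, above and below TM, carry them. Capitals mark the matches on either strand, so CACGT and CACGC are the cores read from the opposite strand, and CACGTG holds ACGTG on both strands.
PGK1 (chrX:78104017-78104089, plus strand, 231 to 159 bases upstream, outside annotated exons): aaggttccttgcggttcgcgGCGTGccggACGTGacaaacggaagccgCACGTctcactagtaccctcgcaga
LDHA (chr11:18394471-18394499, plus strand, 92 to 64 bases upstream, within an exon of an annotated transcript): actcaCACGTGggttcccgCACGTccgcc
PYGB (chr20:25247889-25247945, plus strand, 196 to 140 bases upstream, outside annotated exons): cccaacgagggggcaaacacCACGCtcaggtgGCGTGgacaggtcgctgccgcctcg
G6PC3 (chr17:44070642-44070672, plus strand, 31 bases upstream to the start, outside annotated exons): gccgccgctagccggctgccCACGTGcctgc
GAPDH (chr12:6535163-6535208, plus strand, 101 to 56 bases upstream, outside annotated exons): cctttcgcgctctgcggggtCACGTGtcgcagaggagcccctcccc
The second LDHA window, 197 to 168 bases upstream, held a further CACGTG. GAPDH is shown as the most abundant member, whose level barely differed between the zones. A match describes the letters of the window and is not evidence of binding.

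Glucose enters through the transporters SLC2A1 (GLUT1) and SLC2A3 (GLUT3), the latter of higher affinity. SLC2A1 was the more abundant, at 209.1 ± 34.4 TPM in TC and 193.6 ± 20.8 TPM in TM (SD, n = 3), and the zones overlapped. SLC2A3 stood at 69.0, 65.8 and 51.1 TPM in TC and at 37.8, 43.1 and 60.9 TPM in TM. Its log2 difference of 0.40 was the highest of all members, with an SE of 0.205 and a limma adjusted p of 0.398. TM replicate 3 exceeded TC replicate 3, and without TM replicate 3 the groups separated and the unadjusted p was 0.00869 (limma adjusted p = 0.135).

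In upper glycolysis, hexokinase traps glucose as glucose 6-phosphate. HK1 was about 4 times as abundant as HK2, which made up 20.1% ± 1.5 of their sum in TC and 19.9% ± 3.34 in TM, and their log2 differences were -0.03 and -0.01. ADPGK, which uses ADP in place of ATP for the same step, was at 33.9 ± 5.00 TPM in TC and 38.6 ± 3.02 TPM in TM. GPI, which converts glucose 6-phosphate to fructose 6-phosphate, was at 267.1 ± 47.7 and 298.1 ± 15.8 TPM.

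Phosphofructokinase was mainly of the platelet type, PFKP, at 228 ± 23.5 TPM in TC and 241.2 ± 39.5 TPM in TM, followed by the liver type, PFKL, at 96.9 ± 14.7 and 108 ± 19.7 TPM. PFKM made up 11.2% ± 0.811 of the 3 isoenzymes in TC and 15.8% ± 2.97 in TM. The aldolases split fructose 1,6-bisphosphate, and ALDOA, at 1863 ± 235 TPM in TC and 1747 ± 79.4 TPM in TM, far exceeded ALDOC. ALDOC stood at 137.1, 180.3 and 128 TPM in TC and at 100.6, 105.8 and 165.5 TPM in TM, which differed by 0.28 on the log2 scale (limma SE 0.217, adjusted p = 0.597). TM replicate 3 was the second highest of the 6 samples, and without it TC lay above TM. TPI1, which interconverts the triose phosphates, was at 1705 ± 110 and 1604 ± 27.8 TPM.

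The PFKFB enzymes make and break fructose 2,6-bisphosphate, the allosteric activator of phosphofructokinase. PFKFB4 showed the widest spread of the members, at 44.2, 57.0 and 34.6 TPM in TC and 32.4, 32.2 and 78.0 TPM in TM. TM replicate 3 was 2.42 times the mean of the other two margin samples and the highest of all 6. PFKFB3 followed the same order in TM, at 54.2, 38.4 and 75.8 TPM, and stood at 61.3, 62.0 and 39.7 TPM in TC. PFKFB2 was near the detection filter, at 1.66 ± 0.598 TPM in TC and 2.03 ± 0.153 TPM in TM.

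In lower glycolysis GAPDH, which oxidizes glyceraldehyde 3-phosphate, was the most abundant member at 9196, 8822 and 8637 TPM in TC and 8684, 7762 and 9521 TPM in TM. The highest and the lowest of its 6 values were both in TM. Its log2 difference was 0.04, with a 95% interval of -0.29 to 0.38. ENO1, an enolase and the next in abundance, had a difference of 0.00 with an interval of -0.29 to 0.29, so that a difference of either sign up to that size was not excluded by the replicate error. PGAM1, the phosphoglycerate mutase, was at 1074 ± 85.1 TPM in TC and 1027 ± 108 TPM in TM. PKM, the pyruvate kinase, was at 2081 ± 135 and 2120 ± 29.6 TPM. ENO2, the neuronal enolase, stood at 167.7, 149.9 and 124.9 TPM in TC and 138.3, 135.4 and 222.5 TPM in TM, with TM replicate 3 again the highest.

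In glycogen metabolism, glycogen phosphorylase was mainly of the liver type, PYGL, at 214.9, 216.1 and 217.4 TPM in TC and 254.5, 244.2 and 190.1 TPM in TM. Here TM replicate 3 was the lowest of the 6 samples and the other two margin samples were the highest. GYS1, which elongates glycogen, was at 30.1 ± 5.73 TPM in TC and 36.0 ± 8.02 TPM in TM. GBE1, which adds the branches, ran from 28.1 to 56.8 TPM in TC alone, and its log2 difference of 0.22 was smaller than its SE of 0.274.

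The sugar phosphate enzymes that feed glycogen also overlapped between the zones. UGP2, which makes UDP-glucose, was at 57.0 ± 11.0 TPM in TC and 51.3 ± 6.8 TPM in TM. The phosphoglucomutases, which interconvert glucose 1-phosphate and glucose 6-phosphate, were led by PGM1 at 92.2 ± 11.1 and 85.8 ± 5.97 TPM. PGM2 followed at 12 ± 2.01 and 13.2 ± 3.08 TPM. MPI, which links mannose 6-phosphate to fructose 6-phosphate, stood at 45.8 ± 5.75 TPM in TC and 47.2 ± 13.6 TPM in TM.

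TM replicate 3 was the highest of the 6 samples in 11 of the 32 tested members (34.4%), against 19.6% of all genes tested. It was the highest of the 3 TM samples in 19 members (59.4%), against 28.2% of all genes. Relative to the mean of TM replicates 1 and 2, it stood 2.42 times as high for PFKFB4, 1.64 times for PFKFB3, 1.63 times for ENO2, 1.6 times for ALDOC, 1.59 times for MPI and 1.51 times for SLC2A3. It was lower than that mean for other members, at 0.70 times for PGM2, 0.75 times for PFKM and 0.76 times for PYGL. Some hypoxia genes outside glycolysis were also highest in TM replicate 3 among the margin samples, with CA9, a carbonic anhydrase, at 20.4, 20.8 and 49.5 TPM in TM and NDRG1 at 330.1, 397 and 925 TPM. The part of muscle, fibroblast or hypoxia content of the samples in the members' values was not tested.

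Without TM replicate 3 the median of the members was 0.061, beside -0.19 over all genes, and 18 members lay above 0 and 14 below. SLC2A3, ALDOC and PGK1 then had an unadjusted p under 0.05 in the direction of TC (2.46% of all genes) and PFKM in that of TM (16.8% of all genes), and no member was called. Groups were free of overlap in 10 members. TC lay above TM for SLC2A3, ALDOC, PFKFB4, PGK1 and LDHA (5.98% of all genes). TC lay below TM for ADPGK, PFKM, PYGL, PYGB and G6PC3 (31.1% of all genes). Other samples also moved these counts. At an unadjusted p under 0.05, 0 members stood higher in TC without TC replicate 1, TC replicate 2 or TM replicate 1, and 2 did without TC replicate 3. The median of the members was also above 0 without TC replicate 3 (0.018) and without TM replicate 1 (0.0031). When any 1 of the TC samples was left out, 8 members were free of overlap. Fewer samples separate more readily by themselves. Over all genes, 3.28% lay above and 18.9% below with all samples, and 5.98% and 31.1% without TM replicate 3. For the other samples left out, the shares of all genes are not given here.

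Ratios between isoenzymes within a sample do not depend on the scaling of that sample, so 11 pairs were compared by the exact permutation test, two-sided. The smallest p that 3 against 3 samples allow is 0.1. LDHA over LDHB was the pair that reached it, at 2.28, 2.51 and 2.13 in TC and 1.73, 2.04 and 1.89 in TM. Every TC ratio exceeded every TM ratio by a mean of 1.22-fold, with an exact p of 0.1 and an adjusted p of 0.88 over the 11 pairs. LDHA made up 69.7% ± 1.73 of the LDHA and LDHB transcripts in TC and 65.3% ± 1.90 in TM (SD, n = 3).

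The other 10 pairs overlapped between the zones, with adjusted p of 0.88 to 1 by the exact permutation test. SLC2A3 over SLC2A1 was 1.24-fold higher in TC on average, and the ratio of TM replicate 3 (0.295) was close to that of TC replicate 3 (0.295). PFKM over PFKL stood at 0.470, 0.364 and 0.439 in TC and at 0.722, 0.748 and 0.407 in TM. The ratio of TM replicate 3 lay among those of TC, and PFKL was at its highest there, at 130.6 TPM.

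**Figure D4:**
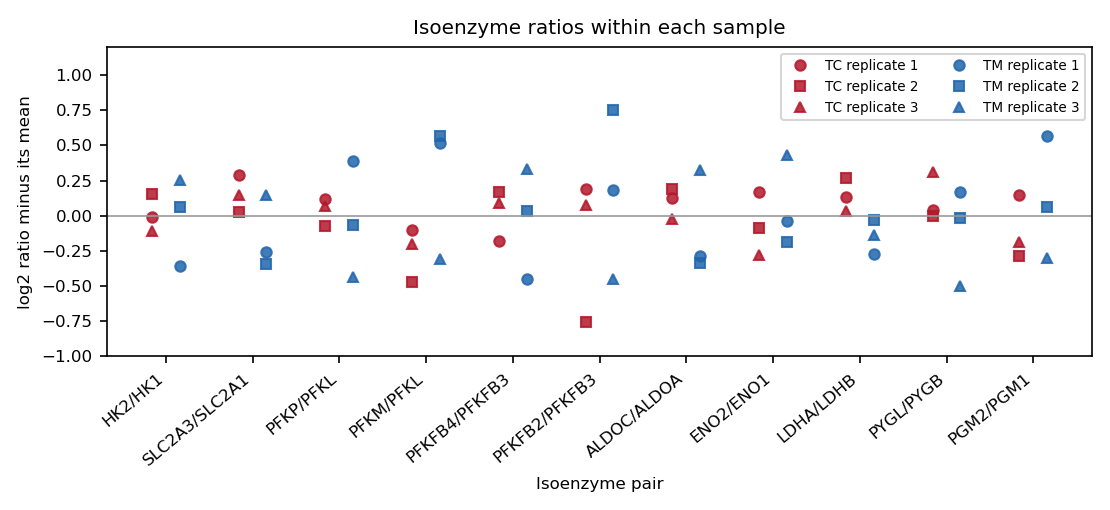
Log2 ratio of 11 isoenzyme pairs in each sample, centered on the mean of the pair; red symbols are TC and blue TM, with the shape giving the replicate. LDHA/LDHB is the pair in which all TC points lie above all TM points.

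PFKM is the isoenzyme of skeletal muscle, and muscle markers were high in TM replicates 1 and 2, so its values were set beside those of other muscle-type enzymes. ENO3, the muscle enolase, stood at 11.2, 7.22 and 8.08 TPM in TC and 16.9, 19.7 and 18.6 TPM in TM, which gave a difference of -1.0 on the log2 scale (limma SE 0.206, adjusted p = 0.0843). PYGM, the muscle glycogen phosphorylase, stood at 0.02, 0.09 and 0.02 TPM in TC and at 5.44, 13.7 and 0.18 TPM in TM, and was not tested because only 2 samples reached 1 TPM. Within TM, PFKM (68.6, 73.2 and 53.2 TPM) and PYGM had the order of the muscle marker sums, which were at 202.4, 549.6 and 3.45 TPM. ENO3 did not, since TM replicate 3 lay above TM replicate 1. PFKM at 53.2 TPM, ENO3 at 18.6 TPM and PYGM at 0.18 TPM in TM replicate 3 were above every TC sample. The marker sum in that sample was below every TC sum (4.61 to 8.48 TPM). Of the single markers, ATP2A1, TNNI2 and CASQ1 were above every TC sample there. ACTA1 and TTN were below every TC sample, and the others lay within the TC range. The part of muscle content in these values was not tested.

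**Figure D5:**
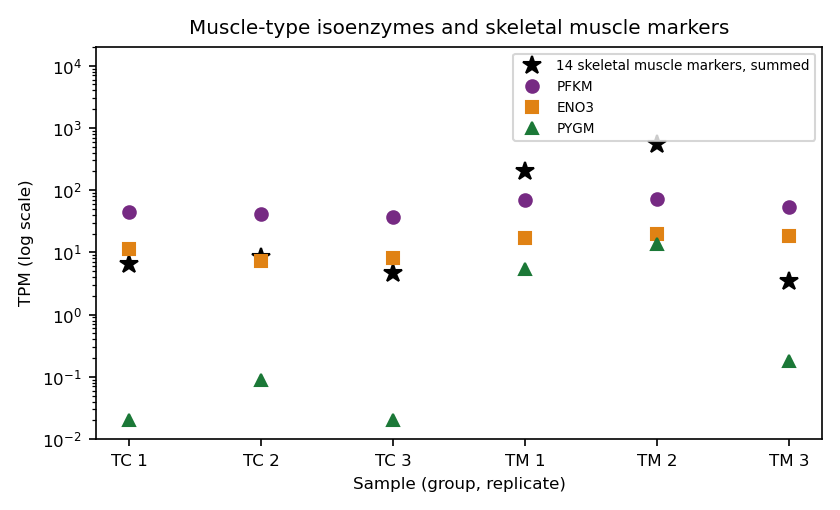
TPM on a log axis of PFKM, ENO3, PYGM and the sum of 14 skeletal muscle markers in each sample. In TM replicate 3 the marker sum is 3.45 TPM, PYGM 0.18 TPM, PFKM 53.2 TPM and ENO3 18.6 TPM. Of these, only the marker sum is below every TC sample.

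Beyond the 33 members, 67 other genes of glucose and glycogen metabolism were listed, and 39 of them were tested. None was called, 5 were lower in TC at an unadjusted p under 0.05 and 0 were higher, beside 14.2% lower and 1.93% higher among all genes tested. The 5 of 39 were thus no larger a share than among all genes, and without TM replicate 3 they numbered 7, with PHKA1 and PRPS1 added, beside 16.8% of all genes. The median difference of the 39 was -0.18, or -0.019 after rescaling. Besides ENO3, the 5 were 4 genes of glycogen control, given here by their values. PHKA2 and PHKG2 encode subunits of phosphorylase kinase, which activates glycogen phosphorylase, with differences of -0.71 and -0.55. GSK3B and GSK3A encode the kinases that inhibit glycogen synthase, with differences of -0.57 and -0.40 and limma adjusted p of 0.151 and 0.178. After rescaling, ENO3 was the only 1 of the 39 with an unadjusted p under 0.05, and none was called.

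Hypoxia genes outside glycolysis served as a comparison, since HIF-1 is known to regulate many of the members too. Of 19 tested, 16 had a difference above 0, where 4578 of all 13861 genes did, with a median of 0.27, or 0.44 after rescaling, beside -0.019 and 0.157 for the members. None was called, and 3 passed an unadjusted p under 0.05 in the direction of TC (1.93% of all genes). This count was 8 after rescaling (5.76% of all genes) and 8 without TM replicate 3 (2.46% of all genes). FAM162A, a mitochondrial protein gene, stood at 103.3, 131.8 and 102.8 TPM in TC and 75.8, 73.6 and 80.6 TPM in TM (limma adjusted p = 0.123). BNIP3, a mitophagy receptor gene, stood at 194.7, 194.1 and 159.9 TPM in TC and 110.6, 99.6 and 156.2 TPM in TM (limma adjusted p = 0.168). VEGFA, the angiogenic growth factor, went the other way at -0.25, and the difference between this list and the members was not tested.

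Processed copies of glycolytic genes could take reads from the genes themselves. The annotated pseudogenes of GAPDH, 65 in number, summed to between 4.68 and 23.4 TPM per sample, or 0.12% of the GAPDH mean, and the 6 of LDHA to 0.107% of the LDHA mean.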

How the data were processed

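Total RNA of 3 TC and 3 TM samples was sequenced in paired ends from TruSeq libraries. Per the study's methods and the submitters' processing notes, the authors trimmed reads with SeqPrep and Sickle, aligned them with HISAT2 to hg38, assembled them with StringTie and quantified genes with RSEM; versions and the annotation release are not given in the sources used here. The authors deposited 1 matrix of TPM per gene, with no read counts, so that DESeq2, which the authors used, could not be run and the depth of each sample is unknown. TPM summed to 994381 in TM replicate 3 and to 1000000 in the other samples. TPM is relative within a sample, so a few abundant genes shift all others.

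Its 60930 features comprised 60671 annotated genes and 259 unannotated loci, the latter left out here. Genes reaching 1 TPM in 3 samples or more were fitted on log2(TPM + 1) with limma 3.58.1 in R 4.3.3, with a mean-variance trend in the empirical Bayes step, after the same code had been tested on simulated data. Alternatives were a pseudocount of 0.1, no filter or a mean of at least 5 TPM, median-of-ratios rescaling, quantile normalization, TPM without mitochondrially encoded genes, a block for the replicate number, other variance moderation and leaving out each sample. Ratios were tested with scipy 1.17.1. Gene names came from the reference annotation by Ensembl identifier. The members and gene lists were chosen with earlier results of these data known. Members whose groups did not overlap or whose unadjusted p was under 0.05 were given in full. The study gives 3 mice per group, and does not say whether both zones came from the same mice.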

Additional observations from a re-analysis of the deposited data

How the results depend on the processing

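No member was called under any setting run. Genes called among all tested numbered 19, and 7 with a pseudocount of 0.1, 1 without a filter, 6 after median-of-ratios rescaling, 4 after quantile normalization, 12 without the mean-variance trend, 47 with robust moderation and 1 to 17 when each sample was left out. Members higher in TC at an unadjusted p under 0.05 numbered 1, and 3 after rescaling, 0 without the trend and 0 to 3 with a sample left out. Members lower numbered 1 (14.2% of all genes), and 2 without a filter, 2 after quantile normalization (1124 of all 13861 genes) and 3 without mitochondrially encoded genes. Most genes past an unadjusted p under 0.05 were lower in TC in these settings too. Without mitochondrially encoded genes 92.3% of 2588 such genes were lower, and without a filter 89.1% of 3243. Members free of overlap numbered 5, and 3 after rescaling and 6 to 10 with a sample left out, where fewer samples separate more readily. Other shares of all genes beside these member counts are given above for all samples, for rescaling and without TM replicate 3 only. The median of the members turned from -0.019 to 0.157 after rescaling and 0.0012 after quantile normalization, and ran from -0.075 to 0.061 with a sample left out. The share of TPM taken by the members, higher by 0.079 percentage points in TC, turned to -0.0034 without mitochondrially encoded genes. With a sample left out, log2 ratios ran from -0.14 to 0.16 for HK2/HK1, -0.12 to 0.29 for PFKP/PFKL, -0.16 to 0.24 for PFKFB4/PFKFB3, -0.26 to 0.048 for ENO2/ENO1 and -0.43 to 0.0080 for PGM2/PGM1. After quantile normalization PFKP/PFKL turned to -0.0031 and ENO2/ENO1 to 0.15. The causes were not tested.

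With a replicate block, 1 gene was called among all tested, and 0 members were higher and 1 lower at an unadjusted p under 0.05. Same-numbered TC and TM samples deviated together in 1 of 3 pairs (r = 0.211, -0.121 and -0.165 across genes). The highest r, 0.317, was between TC replicate 3 and TM replicate 2. Values centered within groups of 3 samples constrain these correlations, so they cannot decide whether the samples were paired. The study used paired tests for core and margin in other tumors. The numbers were not treated as pairs because the labels do not give pairing.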

Other observations

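The pentose phosphate pathway branches off at glucose 6-phosphate and supplies ribose and NADPH. All 10 of its listed genes were tested, none was called and 0 passed an unadjusted p under 0.05 in either direction, with a median difference of -0.19 that became -0.014 after rescaling. Without TM replicate 3, 1 of them was lower at an unadjusted p under 0.05 (PRPS1). PRPS1, which makes the ribose donor for purine synthesis, was free of overlap at 58.6, 58.4 and 67.8 TPM in TC and 75.6, 83.2 and 68.3 TPM in TM (limma adjusted p = 0.348), and was chosen for mention after its values were seen. Of 13 genes for the entry of pyruvate into mitochondria, none was called, and their median was -0.026, or 0.094 after rescaling, 0.14 after quantile normalization and -0.10 without TM replicate 3.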
